A study of Mus musculus with 93 samples.

Results

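Liver RNA from 16 of the 93 mice of the series was described here, namely all male mice labelled C57BL/6J. There were 8 mice on the control diet (CD) and 8 on the western diet (WD). C57BL/6J is an inbred laboratory strain, and these mice carried no transgene. All were housed at thermoneutrality (30 °C) from week 6 of age, with 2 to 5 mice per cage, and received their diet from week 7 for 17 weeks. The CD supplied 10% of its energy as fat, 17% as protein and 73% as carbohydrate, and the WD 40%, 17% and 43%. Tissue was taken at 24 weeks of age after 4 h of fasting. The labels place the mice in 2 cohorts, with 3 CD and 5 WD mice in cohort 1 and 5 CD and 3 WD mice in cohort 2, so that diet was not balanced over cohorts. The question was how the WD changed the hepatic transcriptome of this strain.

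The liver makes much of the body's cholesterol and disposes of the excess through bile. When sterols in the endoplasmic reticulum fall, the escort protein SCAP lets the transcription factor SREBP2 leave that membrane. SREBP2 then switches on the enzymes of the mevalonate pathway, whereas a sterol-rich cell retains it through the INSIG proteins. A second sensor, LXR, is activated by oxysterols and raises sterol exporters. A diet rich in fat and cholesterol can act on both arms. It can also fill hepatocytes with lipid droplets and draw macrophages and matrix-producing cells into action. The methods give no cholesterol content for the WD.

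Hepatocyte transcripts were abundant in every library. The 16 hepatocyte markers summed to between 94180 and 161400 CPM (read counts divided by library size, which was scaled with TMM factors). Reads on genes lay between 48126749 and 49648938 per mouse and the RNA integrity number (RIN) between 7 and 9. No difference between the diets passed the test, as mean RIN was 8.53 on CD and 8.65 on WD (two-sided exact permutation test, p = 0.765), RNA concentration was 937 and 973 ng/µl (exact permutation p = 0.827), and reads on genes gave an exact permutation p = 0.283. All adjusted p-values over these 3 measures were 0.827, and with mice permuted within cohorts the raw p-values were 0.764, 0.829 and 0.281.

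2 libraries, CD replicate 2 and WD replicate 3, stood apart from the others of their diet. The 1st principal component held 36.9% of the variance and the 2nd, along which all WD mice but 1 lay above the CD mice, held 23.2%. CD replicate 2 scored 79.9 and WD replicate 3 scored 65.2 on the 1st component, against -45.7 to 32.7 in the other mice. On the 2nd component, 7 WD mice lay between 25.3 and 38, while WD replicate 3 lay at -14.6, within the range of the CD mice. CD replicate 2 was the highest CD mouse for 4422 genes and the lowest for 4681 of the 15882 genes tested, and WD replicate 3 was the highest WD mouse for 3781 and the lowest for 4048.

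**Figure D1:**
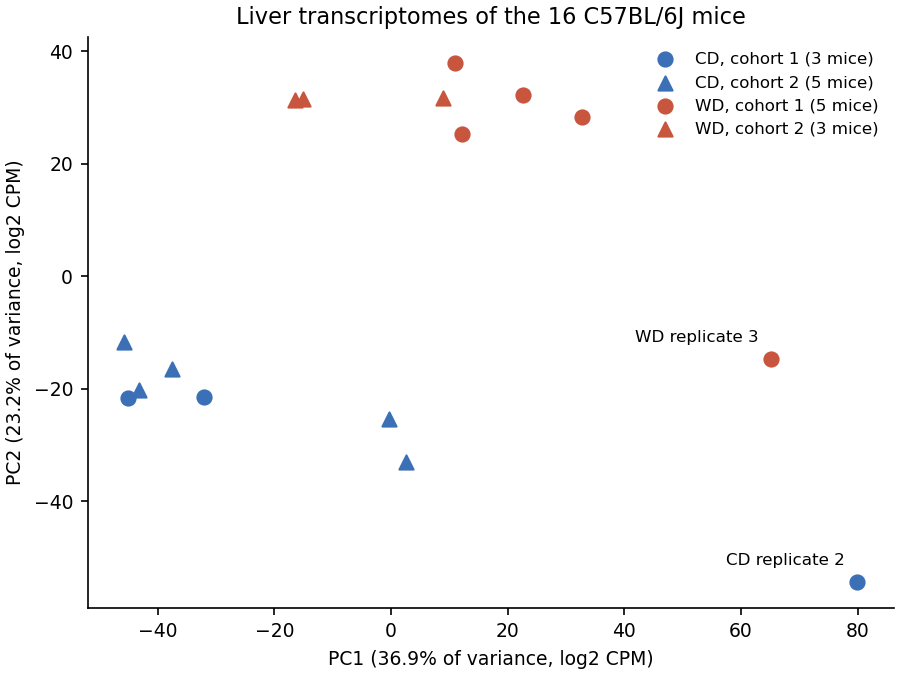
Scores of the 16 C57BL/6J livers on the 2 leading principal components of log2 CPM over the genes tested (x axis 36.9% and y axis 23.2% of the variance). Blue marks CD and red WD, circles cohort 1 and triangles cohort 2. CD replicate 2 and WD replicate 3 lie to the right of the other mice, and 7 of the 8 WD mice lie above all CD mice.

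Transcripts of other organs were present in some livers. CD replicate 2 carried transcripts of adrenal cortex, as its Cyp11b1 (11β-hydroxylase) reached 119.6 CPM against at most 0.0401 CPM in the other 15 mice, and its Cyp11a1 (the side-chain cleavage enzyme) 73.6 CPM against at most 0.0684. The 10 adrenal markers summed to 916.9 CPM in this mouse and to between 33.3 and 54 CPM in the others, most of the latter from Mrap. It also had the highest levels of the adipocyte transcripts Adipoq (5.18 CPM), Plin1 (5.79 CPM) and Retn (2.77 CPM), followed for all 3 by WD replicate 3, with 1.62, 0.923 and 0.359 CPM. WD replicate 7 carried pancreatic acinar transcripts, whose 6 markers summed to 113.4 CPM against at most 0.505 CPM in every other mouse. Results are also given without CD replicate 2 and WD replicate 3, which stood apart on the 1st principal component, a choice made after the data were seen. WD replicate 7 was kept in that setting.

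WD changed 2515 of the 15882 genes tested at an adjusted p below 0.05 (limma-voom with cohort as a covariate). Of these differentially expressed genes (DEGs), 1335 were upregulated (8.41% of the genes tested) and 1180 were downregulated (7.43%), together 15.8%. The increases were the larger changes, with 351 upregulated and 179 downregulated DEGs past a log2 fold change of 1 in size, and the median of all genes tested was at 0.00041. Without CD replicate 2 and WD replicate 3, 2059 genes rose and 1941 fell, and 2379 of the 2515 DEGs were among them with the same direction. Without the CD mice of cohort 1, 819 genes rose and 773 fell, and 968 of the 2515 DEGs were among them with the same direction. The counts were 796 and 719 without WD replicate 6, and 885 genes rose without CD replicate 3. Separation without overlap was rare, since every WD mouse lay above every CD mouse for 135 genes (0.85%, of which 134 were DEGs) and below for 191 (1.2%, all DEGs).

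Within cohort 1 of a fit with a diet effect for each cohort, 11.6% of the genes tested were called in either direction, and within cohort 2 5.85%. That fit shares the spread between mice over both cohorts, and CD replicate 2 and WD replicate 3 were both in cohort 1. Fits to each cohort alone gave the other order. They called 192 genes up and 266 down in cohort 1, and 840 and 727 in cohort 2. The estimates of 2510 of the 2515 DEGs had the same sign in both cohorts. These DEGs were chosen on the same mice, so that count is no check of one cohort by the other. The diet effect itself differed between cohorts for 177 genes (1.11%), 100 of them with a higher and 77 with a lower log2 fold change in cohort 2. Cohort as such, at equal diet, changed 2 genes by limma (0.0126%), with 2497 at an unadjusted p below 0.05, and edgeR called 3.

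**Figure D2:**
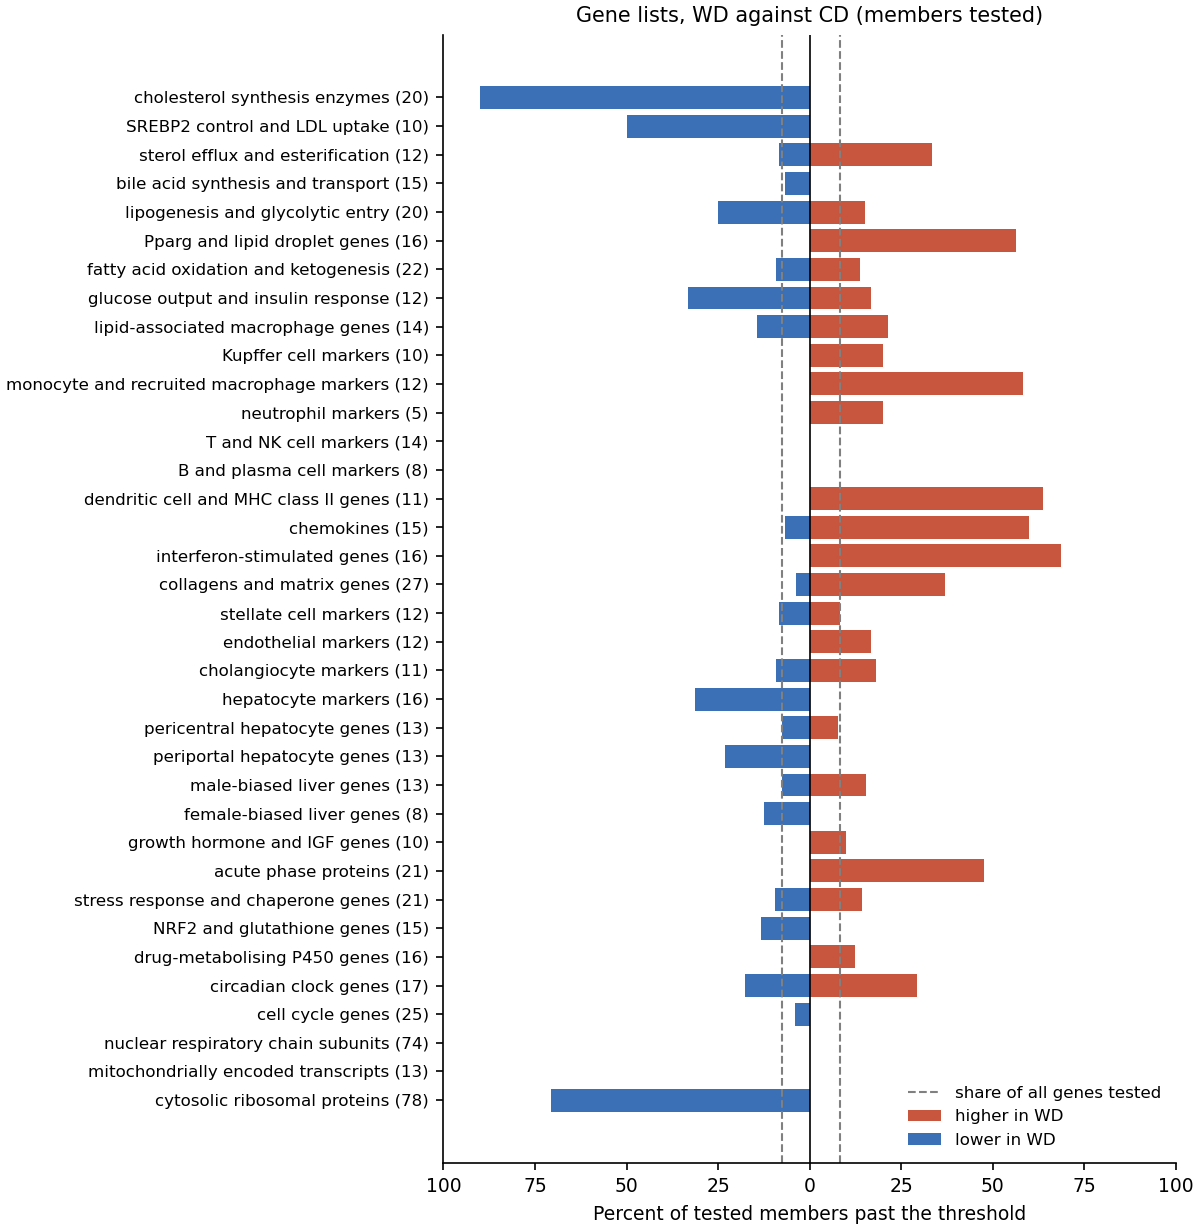
Share of the members of each gene list called upregulated (red, to the right) or downregulated (blue, to the left) on WD, in percent of the members tested. Dashed grey lines mark the shares over all genes tested, 8.41% up and 7.43% down. Cholesterol synthesis enzymes and cytosolic ribosomal proteins reach furthest to the left, and interferon-stimulated genes, MHC class II genes, chemokines, monocyte markers and genes of Pparg and lipid droplets reach furthest to the right.

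Cholesterol synthesis was the most uniformly changed group. Of its 20 enzymes, 18 fell on WD and 0 rose, beside 7.43% and 8.41% of all genes tested. The median log2 fold change was -1.55 over the list, and for 15 enzymes the highest WD mouse lay below the lowest CD mouse. The same numbers, 18 and 0, were found without CD replicate 2 and WD replicate 3, in each of 16 fits that left out 1 mouse, and within each cohort. Summed over the list, these enzymes took 2340 to 4134 CPM on CD (median 3045) and 1241 to 1856 CPM on WD (median 1536).

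The promoters of 2 of these enzymes are shown because they hold letters known from sterol-responsive promoters. They are the 250 bases before the RefSeq start (build GRCm38.p6) of Hmgcs1, the cytosolic HMG-CoA synthase (chr13:119690101-119690350, plus strand), and of Nsdhl, a sterol dehydrogenase (chrX:72918271-72918520, plus strand). Capitals mark TCACNCCAC, the core of a sterol regulatory element, and CCAAT, the box bound by NF-Y, each on either strand.
Hmgcs1: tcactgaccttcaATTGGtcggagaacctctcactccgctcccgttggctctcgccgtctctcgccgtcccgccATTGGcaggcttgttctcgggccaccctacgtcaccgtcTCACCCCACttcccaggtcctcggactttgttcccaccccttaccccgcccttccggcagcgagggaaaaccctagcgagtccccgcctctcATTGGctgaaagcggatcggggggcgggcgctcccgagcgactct
Nsdhl: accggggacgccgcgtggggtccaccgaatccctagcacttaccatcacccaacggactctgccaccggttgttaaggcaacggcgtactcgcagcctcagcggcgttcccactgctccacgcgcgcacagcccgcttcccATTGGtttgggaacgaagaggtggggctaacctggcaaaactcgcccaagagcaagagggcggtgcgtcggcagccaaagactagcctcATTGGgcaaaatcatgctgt

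Of the 15 enzymes with a RefSeq promoter in the table used, 14 held CCAAT on either strand within 250 bases, compared with 39.9% of the 11415 tested genes with a promoter and 33.8% of all 32851 promoters. TCACNCCAC was found in 1 of the 15, Hmgcs1, and in 1.32% of tested genes and 1.05% of all promoters. A match of letters is a description and not a bound site.

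Sqle, the squalene epoxidase, had 67.7 to 145 CPM on CD (median 122) and 7.71 to 21.8 CPM on WD (median 12.1). Its log2 fold change was -3.14 (SE 0.23, adjusted p = 1.3e-06). Idi1, the isopentenyl diphosphate isomerase, had 31.5 to 72.9 CPM on CD (median 50.2) and 3.83 to 6.15 CPM on WD (median 5.77), a log2 fold change of -3.11 (SE 0.20, adjusted p = 2.8e-07). Every WD mouse lay below the lowest CD mouse for both genes. Hmgcs1 had 136 to 473 CPM on CD (median 283) and 44.2 to 82.3 CPM on WD (median 60.9), and fell by 2.10 on the log2 scale (SE 0.24, adjusted p = 8.9e-05). Nsdhl fell by 2.06 (SE 0.20, adjusted p = 1.9e-05). The diets did not overlap for any of these 4 enzymes. Ebp, a sterol isomerase, did not pass the test (-0.22). Cyp51, the lanosterol demethylase, had the smallest adjusted p of the list (log2 fold change -2.19, SE 0.10, adjusted p = 7.3e-09). Hmgcs1, Nsdhl and Cyp51 were named after their values were seen.

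**Figure D3:**
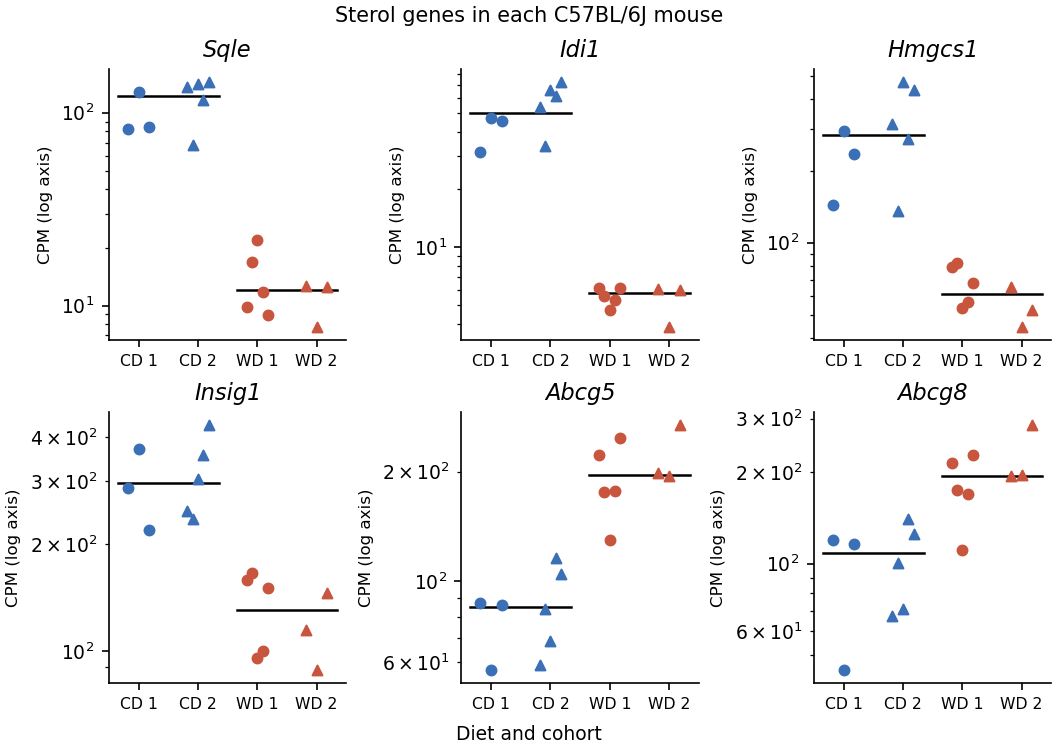
CPM of 6 sterol genes in each of the 16 mice (log axis), CD in blue and WD in red, circles for cohort 1 and triangles for cohort 2, with a black line at the median of each diet. Sqle, Idi1, Hmgcs1 and Insig1 are lower in every WD mouse than in every CD mouse, and Abcg5 is higher, while the diets overlap for Abcg8.

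The genes that govern SREBP2 and lipoprotein uptake were in part downregulated, 5 of 10, with 0 upregulated (6 without CD replicate 2 and WD replicate 3). Over all genes tested, 7.43% were downregulated and 8.41% upregulated. Insig1, which retains SREBP2 and is itself a target, had 219 to 434 CPM on CD (median 296) and 88.2 to 166 CPM on WD (median 130), a log2 fold change of -1.28 (SE 0.18, adjusted p = 3.6e-04).

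Among 12 genes of sterol efflux and esterification, 4 rose and 1 fell, beside 8.41% and 7.43% of all genes tested. Abcg5 and Abcg8 form the canalicular exporter that moves sterols into bile, and are neighbouring genes on opposite strands whose models overlap. Abcg5 had 57 to 116 CPM on CD (median 85) and 129 to 269 CPM on WD (median 196), with no overlap between the diets and a log2 fold change of 1.34 (SE 0.17, adjusted p = 1.7e-04). Abcg8 rose by 1.10 (SE 0.24, adjusted p = 0.0064) with overlap, from 44.6 to 141 CPM on CD (median 108) to 111 to 287 CPM on WD (median 194.5). Abcg1, an exporter to HDL and a common LXR target, had 5.81 to 16.2 CPM on CD (median 9.87) and 18.4 to 29.4 CPM on WD (median 21.4), a log2 fold change of 1.13 (SE 0.16, adjusted p = 5.8e-04). Soat2, which esterifies cholesterol in hepatocytes, was the member that fell (-0.54, adjusted p = 4.4e-04).

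Of 15 tested genes of bile acid synthesis and transport, 1 fell and 0 rose, beside 7.43% and 8.41% of all genes tested. It was Abcb11, the bile salt export pump, with 444 to 933 CPM on CD (median 660) and 327 to 533 CPM on WD (median 436), a log2 fold change of -0.61 (SE 0.14, adjusted p = 0.01). Cyp8b1, the 12α-hydroxylase that sets the balance of bile acid species, had a log2 fold change of 0.10 (adjusted p = 0.91). Cyp7a1, the rate-limiting enzyme, is described with the cohorts.

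Lipogenic genes moved in both directions, with 3 of 20 upregulated and 5 downregulated (median log2 fold change -0.20). Over all genes tested, 8.41% were upregulated and 7.43% downregulated. Srebf1, which encodes SREBP1, had 107 to 401 CPM on CD (median 165) and 209 to 648 CPM on WD (median 459) and rose by 1.20 (SE 0.29, adjusted p = 0.012). Scd1, the desaturase that makes oleate, was among the most abundant transcripts, with 5040 to 29800 CPM on CD (median 17740) and 15460 to 47800 CPM on WD (median 38910), a log2 fold change of 1.13 (SE 0.36, adjusted p = 0.044). In contrast, Acly, which supplies cytosolic acetyl-CoA, had 364 to 845 CPM on CD (median 479) and 156 to 302 CPM on WD (median 202), with no overlap (log2 fold change -1.36, SE 0.16, adjusted p = 9.4e-05). Pnpla3, a lipid droplet hydrolase, also had no overlap, with 5.41 to 23.4 CPM on CD (median 12.3) and 1.33 to 5.3 CPM on WD (median 4.27), and fell by 1.77 (SE 0.41, adjusted p = 0.0098). Fasn, the fatty acid synthase, had a log2 fold change of -0.92 (SE 0.29, adjusted p = 0.044). The call on Scd1 was lost without CD replicate 2, 4, 5, 6 or 8 or WD replicate 1, 2, 4, 5, 6, 7 or 8, and the call on Fasn without CD replicate 1, 3, 4, 5, 6, 7 or 8 or WD replicate 1, 4, 6, 7 or 8, with log2 fold changes between 0.79 and 1.34 and between -1.15 and -0.70 over the 16 fits that left out 1 mouse. The calls on Srebf1 and Pnpla3 were lost in cohort 2 alone and with the CD mice of cohort 1 left out, and that on Pnpla3 also in cohort 1 alone. Without CD replicate 2 alone, 9 lipogenic genes fell.

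Among genes of Pparg and lipid droplets, 9 of 16 were upregulated and 0 downregulated, beside 8.41% and 7.43% of all genes tested. The median log2 fold change was 1.04 over the list. Cidec and Cidea encode proteins that fuse lipid droplets. Cidec had 6.54 to 74.9 CPM on CD (median 14.4) and 71.3 to 208 CPM on WD (median 152), a log2 fold change of 3.24 (SE 0.42, adjusted p = 2.2e-04) with CD replicate 4 alone inside the WD range. Cidea had 0.0226 to 3.25 CPM on CD (median 0.12) and 2.55 to 39.3 CPM on WD (median 16.8), a log2 fold change of 6.26 (SE 1.27, adjusted p = 0.0046). Mogat1, a monoacylglycerol acyltransferase, had 0.0639 to 0.615 CPM on CD (median 0.312) and 1.8 to 10.6 CPM on WD (median 6.67), and Plin4, a coat protein of droplets, 5.43 to 15.1 CPM (median 7.94) and 27.9 to 73.6 CPM (median 48.1). The diets did not overlap for Mogat1 (log2 fold change 3.97, SE 0.59, adjusted p = 6.8e-04) or Plin4 (2.36, SE 0.22, adjusted p = 1.6e-05). Cd36, a fatty acid translocase, rose by 1.75 (SE 0.30, adjusted p = 0.0017), from a median of 54.4 to 272 CPM. CD replicate 2, the mouse with adipocyte transcripts, had the highest CD value of Cidea (3.25 CPM), of Cfd (18.9 CPM) and of Fabp4 (47.7 CPM).

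Several of these genes are also adipocyte genes, so their levels were set beside adipocyte markers. Cfd, which encodes adipsin, had 0.191 to 18.9 CPM on CD (median 0.615) and 2.98 to 162 CPM on WD (median 30), a log2 fold change of 5.78 (SE 1.17, adjusted p = 0.0048), or 7.01 (adjusted p = 1.2e-04) without CD replicate 2 and WD replicate 3. Adipoq had a median of 0.28 CPM on CD and 0.092 CPM on WD, Plin1 0.122 and 0.159 CPM, and the 4 adipocyte markers summed to at most 0.768 CPM in the 7 WD mice other than WD replicate 3, where the sum was 3.215 CPM. Their part in the result was not tested. Fabp4, a fatty acid binding protein of adipocytes, macrophages and endothelium, rose by 1.12 (SE 0.33, adjusted p = 0.033), a call lost without CD replicate 1, 3, 5 or 8 or WD replicate 2, 4 or 6 (log2 fold change 0.84 to 1.57 over the 16 fits). Without the 2 mice that stood apart, 9 genes of this list rose and 3 fell.

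Of 22 genes of fatty acid oxidation and ketogenesis, 3 were upregulated and 2 downregulated, where 15.8% of all genes tested were called in either direction. Vnn1, a pantetheinase and PPARα target, had 11.7 to 91.4 CPM on CD (median 56.6) and 92.2 to 212 CPM on WD (median 173), with no overlap and a log2 fold change of 1.72 (SE 0.38, adjusted p = 0.0072). Pdk4, the kinase that turns off pyruvate dehydrogenase, had 12.6 to 88.5 CPM on CD (median 41.2) and 6.34 to 32.9 CPM on WD (median 9.07). Its log2 fold change was -1.99 (SE 0.40, adjusted p = 0.0043). That call was lost in each cohort alone and with the CD mice of cohort 1 left out. Cyp4a14, a fatty acid ω-hydroxylase and likewise a PPARα target, fell by 1.81 (SE 0.38, adjusted p = 0.0054), from a median of 1590 to 288 CPM. Ppara itself (0.66, adjusted p = 0.2) and Cpt1a (0.31, adjusted p = 0.35) were not called. CD replicate 2 was the lowest CD mouse for 21 of the 22 genes, and without this mouse 6 genes fell.

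Of 12 genes of glucose output and insulin response, 2 rose and 4 fell, beside 8.41% and 7.43% of all genes tested. Igfbp2, an IGF-binding protein, had 489 to 928 CPM on CD (median 642) and 174 to 371 CPM on WD (median 227), with no overlap (log2 fold change -1.27, SE 0.16, adjusted p = 1.7e-04). G6pc, the catalytic subunit of glucose-6-phosphatase, fell by 1.25 (SE 0.33, adjusted p = 0.019), from a median of 730 to 285 CPM, but not past the threshold without CD replicate 3 or WD replicate 6 (-1.03 in both fits). Pck1, which encodes the other committed enzyme of gluconeogenesis, had 0.12 (adjusted p = 0.72). Without CD replicate 1, 3 or 6 or WD replicate 2, 4 or 6 only 1 or 2 members fell.

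Acute phase proteins included some of the largest increases. Of 21, 10 rose and 0 fell, beside 8.41% and 7.43% of all genes tested. For 5 of the 21 the diets did not overlap. Within cohort 1, 6 rose and 4 fell (median log2 fold change 0.13), and within cohort 2, 7 rose and 0 fell (median 0.66). Saa1 and Saa2, the serum amyloid A proteins secreted by hepatocytes, are close paralogs, and multimapping reads were listed apart from the gene counts. Saa2 had 4.74 to 14.7 CPM on CD (median 7.21) and 35.4 to 156 CPM on WD (median 105), a log2 fold change of 3.64 (SE 0.34, adjusted p = 1.6e-05), and Saa1 had 3.21 (SE 0.33, adjusted p = 2.8e-05). Lcn2, the iron-siderophore binder lipocalin 2, had 2.64 to 45.9 CPM on CD (median 4.41) and 52.3 to 137 CPM on WD (median 82.2), a log2 fold change of 3.33 (SE 0.50, adjusted p = 6.6e-04). Orm3, an orosomucoid with close paralogs, had 0.191 to 1.2 CPM on CD (median 0.275) and 1.54 to 38.4 CPM on WD (median 24.9), the lowest of them being WD replicate 3, and a log2 fold change of 5.70 (SE 1.27, adjusted p = 0.0078). The fibrinogen genes Fga (-0.28), Fgb (-0.29) and Fgg (-0.25), complement C3 (-0.24) and Cp, which encodes ceruloplasmin (-0.01), were not called over both cohorts.

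Interferon-stimulated genes moved in a single direction. All 16 had a positive log2 fold change (0.21 to 1.04, median 0.67), and the diets overlapped for each. Of the 16, 11 were called up and 0 down, beside 8.41% and 7.43% of all genes tested. The promoters of Isg15, an ubiquitin-like protein (chr4:156200819-156201068, minus strand), and Ifit1, an RNA-binding antiviral protein (chr19:34640639-34640888, plus strand), are shown for the letters of the interferon-stimulated response element, GAAANNGAA, in capitals on either strand and here partly overlapping.
Isg15: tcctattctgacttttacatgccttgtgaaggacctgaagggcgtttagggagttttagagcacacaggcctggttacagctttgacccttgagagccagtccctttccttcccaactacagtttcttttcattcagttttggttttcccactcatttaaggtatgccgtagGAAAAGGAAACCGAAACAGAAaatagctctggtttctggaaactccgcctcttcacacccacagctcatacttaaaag
Ifit1: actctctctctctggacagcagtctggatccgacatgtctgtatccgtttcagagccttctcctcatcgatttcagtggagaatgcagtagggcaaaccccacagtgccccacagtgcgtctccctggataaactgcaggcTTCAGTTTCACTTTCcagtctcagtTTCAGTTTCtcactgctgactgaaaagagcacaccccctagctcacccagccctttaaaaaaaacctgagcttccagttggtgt

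These letters stood in 6 of the 12 genes of the list with a promoter, compared with 7.81% of tested genes and 7.13% of all promoters. Ifit1 had 5.3 to 14.7 CPM on CD (median 7.63) and 12.4 to 22.2 CPM on WD (median 14.7), a log2 fold change of 1.04 (SE 0.15, adjusted p = 5.5e-04). Isg15, named for its promoter after its values were seen, had 3.19 to 7.9 CPM on CD (median 4.4) and 5.58 to 13 CPM on WD (median 8.01), and rose by 0.86 (SE 0.19, adjusted p = 0.0081). Irf7, a transcription factor that amplifies the response, rose by 0.74 (SE 0.19, adjusted p = 0.019). The count of 11 fell to 5 without CD replicate 3, where Irf7 lost its call (0.67), and to 7 without CD replicate 5. It was 1 and 7 in fits to cohort 1 and cohort 2 alone. In the fit with a diet effect for each cohort, it was 3 within cohort 1 and 2 within cohort 2.

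Chemokines were upregulated for 9 of 15 tested members and downregulated for 1, beside 8.41% and 7.43% of all genes tested. Cxcl1, a neutrophil chemokine, had 3.17 to 22.4 CPM on CD (median 7.64) and 9.11 to 102 CPM on WD (median 23.9), a log2 fold change of 2.18 (SE 0.44, adjusted p = 0.0044). Ccl2, which recruits monocytes, had 0.462 to 3.49 CPM on CD (median 1.42) and 2.96 to 8.38 CPM on WD (median 5.48), a log2 fold change of 1.76 (SE 0.38, adjusted p = 0.0069). Cxcl9, an interferon-γ-induced ligand for T cells, rose by 1.38 (SE 0.38, adjusted p = 0.024), a call lost without WD replicate 6, 7 or 8 (1.31, 1.23 and 1.17). Without WD replicate 6 the count was 5.

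Antigen presentation genes of dendritic cells and MHC class II rose for 7 of 11 members, and 0 fell, beside 8.41% and 7.43% of all genes tested. Cd74, the invariant chain, had 59.4 to 278 CPM on CD (median 104) and 125 to 328 CPM on WD (median 236), a log2 fold change of 1.00 (SE 0.32, adjusted p = 0.042). H2-Eb1, a class II β chain, rose by 1.25 (SE 0.37, adjusted p = 0.031). Their estimates were 0.43 and 0.57 in cohort 1 and 1.56 and 1.92 in cohort 2, differences that were not called (adjusted p = 0.38 and 0.37). The call on Cd74 was lost without CD replicate 3, 4, 5, 6 or 7 or WD replicate 2, 3, 6, 7 or 8 (0.85 to 1.25 over the 16 fits that left out 1 mouse), and that on H2-Eb1 without CD replicate 3 or 5 or WD replicate 2, 6, 7 or 8 (1.05 to 1.54). No member was called without CD replicate 3 or WD replicate 6, 7 or 8, 1 without CD replicate 5 or WD replicate 2, 2 without CD replicate 7, and 4 without CD replicate 4 or 6.

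Monocyte and recruited macrophage markers had positive log2 fold changes for all 12 members (median 0.89). Of these, 7 were called up, beside 8.41% of all genes tested. The count was 2 within cohort 1 (median 1.01), 0 within cohort 2 (median 0.80) and 2 without the CD mice of cohort 1. Ccr2, the monocyte receptor for CCL2, had 1.77 to 10.7 CPM on CD (median 3.22) and 6.39 to 15.8 CPM on WD (median 9.45), a log2 fold change of 1.39 (SE 0.31, adjusted p = 0.0081). Adgre1, which encodes the macrophage antigen F4/80, rose by 0.86 (SE 0.24, adjusted p = 0.026), and WD replicate 4 was its highest mouse at 138.3 CPM, against 41.6 CPM in the highest CD mouse. That call was lost without CD replicate 3 (0.69) or WD replicate 6 (0.86), and without these mice the list had 2 and 3 called members. In whole liver, a change in the number of cells of a type and a change in RNA per cell cannot be told apart.

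Kupffer cell markers, which label the resident macrophages, were called up for 2 of 10, beside 8.41% of all genes tested. The count was 1 without CD replicate 2, 3 or 5 or WD replicate 2, 4, 6 or 8. Cd5l, a secreted scavenger receptor, rose by 0.92 (SE 0.19, adjusted p = 0.0057), from a median of 109 to 202 CPM, while Clec4f (0.11, adjusted p = 0.73) and Timd4 (0.21, adjusted p = 0.83) were not called. Timd4 was 0.665 CPM in CD replicate 2 and 1.03 CPM in WD replicate 3, the lowest of their diets, whose medians were 9.45 and 8.43 CPM.

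The count for genes of lipid-associated macrophages moved with CD replicate 2. With all mice 3 of 14 rose and 2 fell, beside 8.41% and 7.43% of all genes tested. The increases numbered 10 without CD replicate 2, 5 without CD replicate 4 and 1 without WD replicate 4, 5 or 8. CD replicate 2 was the highest on CD for 13 of the 14 genes. Gpnmb, a glycoprotein of lipid-laden macrophages, had 0.632 to 190 CPM on CD (median 1.32), the highest being CD replicate 2, and 3.74 to 110 CPM on WD (median 32.5). Its log2 fold change was 2.43 (SE 0.97, adjusted p = 0.1) and 3.49 without CD replicate 2. Trem2, the receptor that marks these cells, had 0.532 to 16.3 CPM on CD (median 1.03), again with CD replicate 2 at the top, and 1.32 to 16.4 CPM on WD (median 5.06), and its log2 fold change was 1.37 (SE 0.65, adjusted p = 0.17) and 1.84 without CD replicate 2, past the threshold. Itgax, which encodes CD11c, rose by 1.55 (SE 0.48, adjusted p = 0.04), a call lost without CD replicate 1, 3, 5, 6, 7 or 8 or WD replicate 2, 5, 6, 7 or 8 (1.15 to 2.15 over the 16 fits). No member of the list was called up without CD replicate 1, 3, 5, 7 or 8 or WD replicate 2 or 6. Fabp5, a fatty acid binding protein that hepatocytes can also express, fell with no overlap, from 30 to 172 CPM (median 73.4) to 12.1 to 29.6 CPM (median 18.6), a log2 fold change of -1.99 (SE 0.35, adjusted p = 0.0019).

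**Figure D4:**
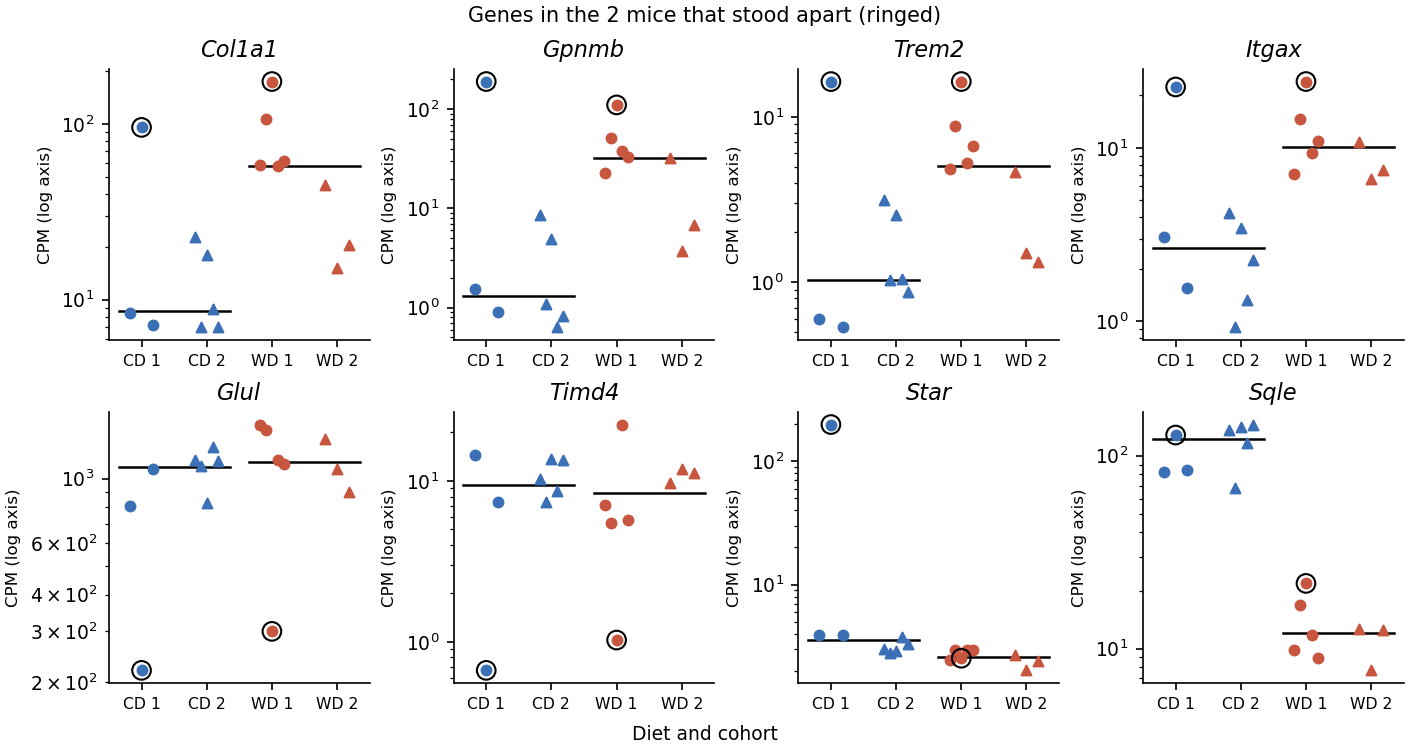
CPM of 8 genes in each of the 16 mice (log axis), CD in blue and WD in red, circles for cohort 1 and triangles for cohort 2, with a black line at the median of each diet and rings around CD replicate 2 and WD replicate 3. CD replicate 2 is the highest CD mouse for Col1a1, Gpnmb, Trem2, Itgax and Star and the lowest for Glul and Timd4, and its Sqle lies among the other CD mice.

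Collagens and matrix genes moved with the same mouse. With all mice 10 of 27 rose and 1 fell, beside 8.41% and 7.43% of all genes tested. Without CD replicate 2 and WD replicate 3, 21 rose and 1 fell. CD replicate 2 was the highest CD mouse for 26 of the 27 genes, and WD replicate 3 the highest WD mouse for 25. Col1a1, the main chain of fibrillar collagen, had 6.96 to 95.7 CPM on CD (median 8.62) and 15.2 to 174.5 CPM on WD (median 57.9), a log2 fold change of 1.67 (SE 0.52, adjusted p = 0.04), or 1.95 (adjusted p = 0.0036) without the 2 mice. Col3a1 had 20.4 to 194 CPM on CD (median 27.3) and 46.8 to 356 CPM on WD (median 132), a log2 fold change of 1.35 (SE 0.41, adjusted p = 0.037), or 1.58 (adjusted p = 0.0029). Timp1, an inhibitor of matrix proteases, had 0.0678 to 2.37 CPM on CD (median 0.272) and 0.672 to 5.4 CPM on WD (median 2.42), and rose by 2.22 (SE 0.54, adjusted p = 0.013). The call on Col1a1 was lost without CD replicate 1, 3, 5, 7 or 8 or WD replicate 1, 2, 3, 4, 5, 6 or 8 and that on Col3a1 without CD replicate 1, 3, 5, 7 or 8 or WD replicate 1, 2, 4 or 6, with log2 fold changes of 1.30 to 2.12 and 1.08 to 1.71 over the 16 fits. The count of called members lay between 2, without CD replicate 1 or 3, and 15, without CD replicate 2. None was called up with the CD mice of cohort 1 left out, where the median over the list was 0.40 against 0.56 with all mice.

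Stellate cell markers gave 1 increase and 1 decrease among 12, and Acta2, the actin of activated stellate cells, had a log2 fold change of 0.65 (SE 0.28, adjusted p = 0.13), or 0.95 and past the threshold without CD replicate 2. Endothelial markers gave 2 increases among 12, of which Lyve1, a hyaluronan receptor of sinusoidal and lymphatic endothelium, rose by 1.13 (SE 0.25, adjusted p = 0.0077) from a median of 12 to 30.7 CPM. Cholangiocyte markers gave 2 increases and 1 decrease among 11. Beside the lists of this paragraph, 8.41% of all genes tested were called up and 7.43% down. Krt23, a keratin that injured hepatocytes also express, rose by 1.60 (SE 0.30, adjusted p = 0.0027), from a median of 2 to 9.28 CPM. Without CD replicate 2, 3 stellate and 3 cholangiocyte markers rose and 3 endothelial markers fell, and 1 endothelial marker rose without CD replicate 3 or WD replicate 6. The cholangiocyte increases numbered 1 without CD replicate 1 or 3 or WD replicate 2, 4, 6 or 7, and the decrease was lost without WD replicate 6. The stellate decrease was lost without CD replicate 3 or WD replicate 6, 7 or 8. Neutrophil markers gave 1 increase among 5, Csf3r, the G-CSF receptor, which rose by 0.78 without overlap (SE 0.16, adjusted p = 0.0054), and the count was 4 without CD replicate 2, 3 without WD replicate 2 and 2 without CD replicate 1, 3, 4, 6, 7 or 8 or WD replicate 3. Of 14 T and NK cell markers, limma and edgeR called 0 and DESeq2 1, and 1 had an unadjusted p below 0.05. Within cohort 2 limma called 3 up (median log2 fold change 0.57), as it did without the CD mice of cohort 1, and the median within cohort 1 was -0.39. Cd3e of the T cell receptor complex gave -0.12 (adjusted p = 0.82).

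The 8 B and plasma cell markers held 0 calls by limma, edgeR and DESeq2, and 2 had an unadjusted p below 0.05. Cd79a of the B cell receptor gave -0.54 (adjusted p = 0.2) and Jchain, which joins polymeric antibodies, -0.96 (SE 0.44, adjusted p = 0.16). Igha, the constant region of IgA, had 6.38 to 20.2 CPM on CD (median 10.2) and 0.291 to 6.34 CPM on WD (median 0.677). The highest WD mouse lay just below the lowest CD mouse, and the log2 fold change was -3.70 (SE 0.50, adjusted p = 3.3e-04), with -3.41 in cohort 1 and -4.24 in cohort 2.

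Hepatocyte markers were called down for 5 of 16, beside 7.43% of all genes tested. Within cohort 1, 6 fell (median log2 fold change -0.35), and within cohort 2, 1 fell (median -0.07). Without the CD mice of cohort 1, 1 fell and 1 rose. Alb, the albumin transcript, had 96950 to 116200 CPM on CD (median 107900) and 59880 to 73090 CPM on WD (median 67100), so that the diets did not overlap (log2 fold change -0.69, SE 0.09, adjusted p = 1.9e-04). The count of called members was 2 without CD replicate 1 or 3 or WD replicate 6 and 3 without WD replicate 2 or 4.

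Zonation genes mark hepatocytes by their place between the portal and the central vein. The shares over all genes tested, for comparison, were 8.41% up and 7.43% down. Among 13 pericentral genes 1 rose and 1 fell, the latter Axin2, a Wnt target, by 0.67 (SE 0.12, adjusted p = 0.0019), while Glul (0.39, adjusted p = 0.5) and Cyp2e1 (0.79, adjusted p = 0.11) were not called. WD replicate 3 was the lowest WD mouse for all 13, with Glul at 299 CPM against a median of 1140 CPM on WD, and without it Cyp2e1 was called (0.97) and 4 genes rose. None rose without WD replicate 6 or 8, and 2 did without CD replicate 2 or 7. Among 13 periportal genes 3 fell (5 without WD replicate 3), including Hal, the histidine ammonia-lyase, by 0.61 (SE 0.15, adjusted p = 0.015).

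Sex-biased genes of mouse liver are set by the pattern of growth hormone pulses. The counts below stand beside 8.41% of all genes tested called up and 7.43% down. Of 13 male-biased genes 2 rose and 1 fell, the latter in the fits without CD replicate 2 or 8 or WD replicate 8 but in no other fit that left out 1 mouse, and CD replicate 2 was the lowest CD mouse for 12. Cyp4a12a was 6.18 CPM in this mouse against a CD median of 155 CPM, and Hsd3b5 0.126 against 79.9 CPM, and their diet effects were not called (adjusted p = 0.16 and 0.94). Of 8 tested female-biased genes 1 fell, Abcd2, a peroxisomal transporter of fatty acids, by 1.52 (SE 0.28, adjusted p = 0.0023), and Cyp2b9 reached 196 CPM in the highest CD mouse and 129 CPM in the highest WD mouse around medians of 0.698 and 6.5 CPM (adjusted p = 0.49). Of 10 growth hormone and IGF genes 1 rose, Igfbp3, by 0.78 (SE 0.15, adjusted p = 0.0033).

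Genes of stress responses and chaperones rose for 3 and fell for 2 of 21, beside 8.41% and 7.43% of all genes tested. Within cohort 1, 1 rose and 2 fell (median log2 fold change -0.39), within cohort 2, 5 rose and 1 fell (median 0.61), and without the CD mice of cohort 1, 6 rose and 1 fell. Fgf21, a hormone secreted by the stressed liver, had 14.9 to 70.2 CPM on CD (median 55.1) and 7.04 to 21.6 CPM on WD (median 11.2), a log2 fold change of -2.12 (SE 0.34, adjusted p = 0.0011). Its lowest CD mouse, CD replicate 7, was the only one within the WD range. Atf4, the transcription factor of the integrated stress response, fell by 0.53 without overlap (SE 0.11, adjusted p = 0.0055), from a median of 88.4 to 65 CPM, whereas Chac1, a target of that response that degrades glutathione, rose by 1.69 (SE 0.28, adjusted p = 0.0014), from 2.22 to 7.86 CPM.

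Of 15 NRF2 and glutathione genes 2 fell and 0 rose, and 1 or 0 fell without any 1 mouse other than CD replicate 2 or 8 or WD replicate 8. Gsta4, a glutathione transferase for lipid aldehydes, fell by 0.65 (SE 0.17, adjusted p = 0.021), a call lost without WD replicate 7 (-0.56). Of 16 drug-metabolising P450 genes 2 rose, one of them Por, the reductase that feeds electrons to these enzymes, by 0.65 (SE 0.14, adjusted p = 0.0075). Cyp3a11, the major drug oxidase, had 0.21 (adjusted p = 0.48). Without WD replicate 3, 5 P450 genes rose, and 1 rose without any other single mouse except CD replicate 2. Beside both lists, 8.41% of all genes tested were called up and 7.43% down.

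Cell cycle genes were not called apart from Ccnd1. Of 25, 0 rose and 1 fell, beside 8.41% and 7.43% of all genes tested. CD replicate 2 was the highest CD mouse for 24 of the 25. Mki67, a marker of dividing cells, was 32.8 CPM in that mouse against a CD median of 2.64 CPM (log2 fold change 0.42, adjusted p = 0.64). Ccnd1, cyclin D1, had 50.9 to 192 CPM on CD (median 116) and 23 to 122 CPM on WD (median 42.7), a log2 fold change of -1.16 (SE 0.36, adjusted p = 0.037), and lost its call without CD replicate 2, 4, 5, 6 or 8 or WD replicate 1, 4, 5, 6, 7 or 8 (-1.37 to -0.94 over the 16 fits). Without CD replicate 2, 4 cell cycle genes rose.

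Ribosomal protein transcripts fell by small amounts. All 78 had a negative log2 fold change, with a median of -0.23, and the diets did not overlap for 14. Of the 78, 55 were called down, beside 7.43% of all genes tested. They summed to 11170 to 13580 CPM on CD (median 11760) and 9468 to 11050 CPM on WD (median 10050). Rps6, of the small subunit, had 168 to 185 CPM on CD (median 173) and 137 to 161 CPM on WD (median 142), a log2 fold change of -0.24 (SE 0.05, adjusted p = 0.0044), and Rpl3, of the large subunit, fell by 0.37 (SE 0.07, adjusted p = 0.0039). The count was 59 without CD replicate 2 and WD replicate 3, 54 with upper-quartile factors and 27 without WD replicate 6. In the fit with a diet effect for each cohort 43 were called down within cohort 1 (median -0.31) and 1 within cohort 2 (median -0.16). The count was 4 with the CD mice of cohort 1 left out, and 0 and 3 in separate fits to cohort 1 and cohort 2. The nuclear genes of the respiratory chain held 0 calls among 74 by limma and edgeR and 2 by DESeq2 (6 at an unadjusted p below 0.05, log2 fold changes -0.23 to 0.25, median 0.02), and 3 rose without WD replicate 3, which was the lowest WD mouse for 71 of them. The 13 mitochondrially encoded transcripts held 0 calls by limma and edgeR and 1 by DESeq2 (1 at an unadjusted p below 0.05, median 0.05). Nnt, the transhydrogenase in which C57BL/6J carries a known deletion, had a log2 fold change of 0.10 (adjusted p = 0.49) in counts over the whole gene.

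Clock transcripts differed between cohorts. In hepatocytes the activators BMAL1 (Arntl), CLOCK and NPAS2 drive E-box genes, among them the Per genes, Dbp and Ciart, whose products peak at the opposite phase. The promoter of Ciart, a repressor of the activators (chr3:95882229-95882478, minus strand, build GRCm38.p6), is shown with its E-boxes, CACGTG, in capitals.
Ciart: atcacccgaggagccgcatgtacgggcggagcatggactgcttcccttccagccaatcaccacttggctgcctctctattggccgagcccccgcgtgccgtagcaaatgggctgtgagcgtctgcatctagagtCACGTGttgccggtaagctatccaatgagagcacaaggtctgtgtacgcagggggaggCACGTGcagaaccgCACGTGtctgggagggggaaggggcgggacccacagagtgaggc

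E-boxes stood in 5 of the 15 clock genes with a promoter, against 9.4% of tested genes and 6.02% of all promoters. Over all mice 5 of 17 clock genes rose and 3 fell, beside 8.41% and 7.43% of all genes tested. In contrast, 8 rose and 5 fell within cohort 1, and 2 rose and 0 fell within cohort 2. The decreases numbered 0 without CD replicate 1 or 3 and 1 without CD replicate 2 or WD replicate 2, 4 or 5. Arntl had 24.5 to 41.1 CPM in the 3 CD mice of cohort 1 and 2.11 to 6.38 CPM in the 5 WD mice of that cohort, but 2.44 to 11.6 CPM in the 5 CD mice and 6.67 to 8.83 CPM in the 3 WD mice of cohort 2. Its log2 fold change was -3.36 in cohort 1 and 0.41 in cohort 2, and the difference of 3.77 passed the test (adjusted p = 0.01). Npas2 gave -4.19 and 0.45, a difference of 4.64 (adjusted p = 0.01). Dbp had 0.881 to 5.88 CPM in the CD mice of cohort 1 and 18 to 112 CPM in all other mice, with log2 fold changes of 4.27 and 0.09 (difference -4.18, adjusted p = 0.056). The 3 CD mice of cohort 1 stood apart from the other 13 for these genes. Mice were killed between 1:30 and 4 in the afternoon. The labels do not give the time of each mouse, and the part of sampling time in these values was not tested.

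The diet effect over both cohorts was -1.94 for Arntl (SE 0.57, adjusted p = 0.03), -2.63 for Npas2 (SE 0.68, adjusted p = 0.017) and 1.82 for Dbp (SE 0.67, adjusted p = 0.078). With the CD mice of cohort 1 left out, Arntl and Npas2 turned to 0.41 and 0.45. The call on Arntl was also lost without CD replicate 1, 2 or 3 or WD replicate 2, 4 or 5 (-2.39 to -1.39 over the 16 fits), that on Npas2 without CD replicate 1, 2 or 3 (-2.34, -2.02 and -2.36), and Dbp was called without CD replicate 7 or WD replicate 7 (2.01 and 2.28). Per1 had 8.29 to 18.8 CPM on CD (median 14.3) and 19.45 to 48.3 CPM on WD (median 31.9), with no overlap, and log2 fold changes of 1.47 in cohort 1 and 1.02 in cohort 2 (1.24 over both, SE 0.19, adjusted p = 9.4e-04). Per2 rose by 1.56 (SE 0.28, adjusted p = 0.0023) and Ciart by 2.30 (SE 0.49, adjusted p = 0.0062), from a median of 1.51 to 8.32 CPM. Both calls were lost in cohort 2 alone and with the CD mice of cohort 1 left out. Ciart had 0.277 to 1.01 CPM in the 3 CD mice of cohort 1. In the 5 CD mice of cohort 2 it had 0.963 to 10.4 CPM.

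**Figure D5:**
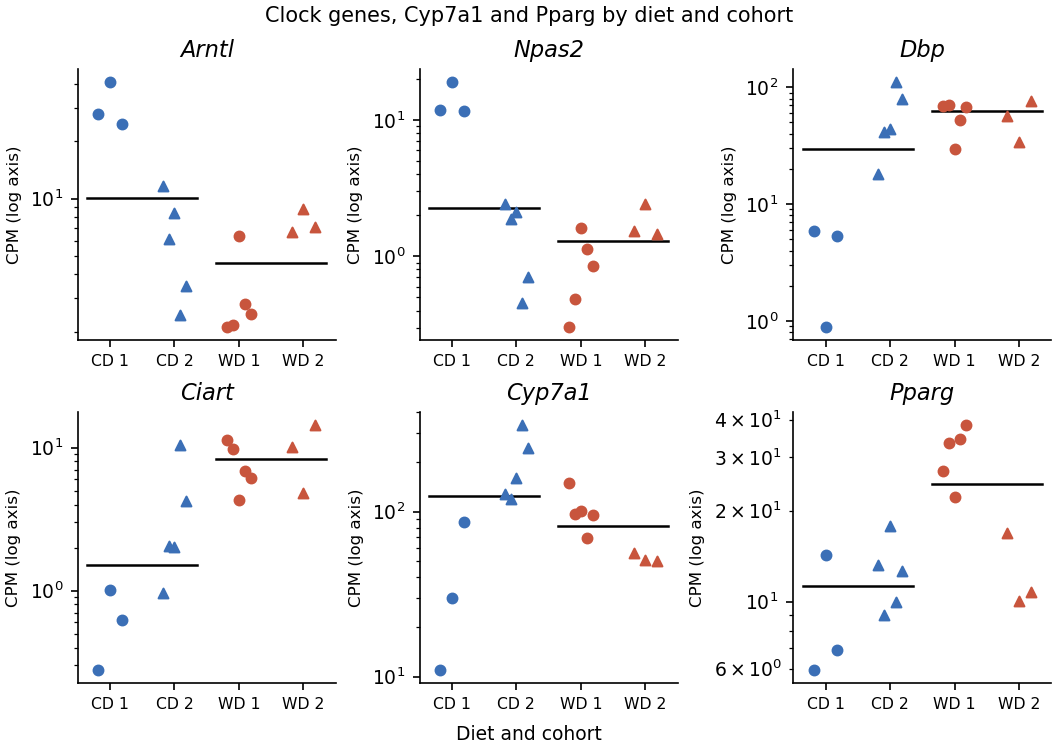
CPM of 4 clock genes, Cyp7a1 and Pparg in each of the 16 mice (log axis), CD in blue and WD in red, circles for cohort 1 and triangles for cohort 2, with a black line at the median of each diet. The 3 CD mice of cohort 1 lie apart from all other mice for Arntl, Npas2 and Dbp, and for Cyp7a1 the cohorts show opposite diet effects.

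Cyp7a1 and Pparg also had a diet effect that differed between cohorts. Cyp7a1 had 10.9 to 86 CPM in the CD mice and 68.8 to 148 CPM in the WD mice of cohort 1, and 119 to 337 CPM in the CD mice and 50.2 to 56.1 CPM in the WD mice of cohort 2. It rose within cohort 1 (1.71, adjusted p = 0.035) and fell within cohort 2 (-1.80, adjusted p = 0.046), a difference of -3.51 (adjusted p = 0.031), so that the estimate over both was 0.06 (adjusted p = 0.96). Pparg, the adipogenic nuclear receptor, had 5.92 to 14.3 CPM in the CD mice and 22.1 to 38.6 CPM in the WD mice of cohort 1, and 9.05 to 17.8 and 10 to 16.8 CPM in cohort 2. Its log2 fold change was 1.83 in cohort 1 and 0.00 in cohort 2 (difference -1.83, adjusted p = 0.049), and 0.96 over both (SE 0.30, adjusted p = 0.042), a call lost without CD replicate 1, 3, 5 or 7 or WD replicate 1, 2, 4, 5 or 6 (0.76 to 1.09 over the 16 fits). Gm33447, a predicted gene, had log2 fold changes of 1.54 in cohort 1 and -1.97 in cohort 2 (difference -3.52, adjusted p = 0.015).

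The remaining genes with the largest changes and no overlap were of mixed function. Ephb2, a receptor for ephrins, had 0.294 to 2.32 CPM on CD (median 0.708) and 4.125 to 24.9 CPM on WD (median 16.9), a log2 fold change of 3.88 (SE 0.51, adjusted p = 2.3e-04). Tmem28 had 0.118 to 1.02 CPM on CD (median 0.661) and 2.09 to 12.8 CPM on WD (median 10.4), a log2 fold change of 4.14 (SE 0.62, adjusted p = 7.2e-04). Gm13775, which overlaps a Mup pseudogene on the same strand, rose by 3.51 (SE 0.62, adjusted p = 0.0019), and Mup17, a major urinary protein, by 6.80 (SE 1.22, adjusted p = 0.0021). Among the decreases, Enho, which encodes the secreted peptide adropin, had 6.66 to 20.7 CPM on CD (median 10.7) and 0.498 to 6.48 CPM on WD (median 0.762), a log2 fold change of -3.26 (SE 0.47, adjusted p = 5.4e-04). Avpr1a, the vasopressin V1a receptor, had 29 to 62.1 CPM on CD (median 36.9) and 4.15 to 14.8 CPM on WD (median 6.54), a log2 fold change of -2.55 (SE 0.24, adjusted p = 1.6e-05). Atp2b2, a calcium pump of the plasma membrane, had 9.46 to 22.6 CPM on CD (median 15.7) and 2.17 to 5.06 CPM on WD (median 2.66), a log2 fold change of -2.49 (SE 0.23, adjusted p = 1.4e-05). The estimates in the 2 cohorts lay close together for Tmem28 (4.16 and 4.13), Enho (-3.26 and -3.27) and Atp2b2 (-2.45 and -2.56). They lay further apart for Avpr1a (-3.19 and -1.77, adjusted p of the difference 0.053) and Ephb2 (4.46 and 3.29, adjusted p of the difference 0.65).

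The diet effect in C57BL/6J was then compared with the mean diet effect of the 6 other strains, kept on the same diets and at the same temperature (129S1/SvImJ, A/J, CAST/EiJ, DBA/2J, PWK/PhJ and WSB/EiJ, 77 mice) in a fit of all 93 mice. Of 19110 genes, 586 (3.07%) had a higher and 631 (3.3%) a lower diet effect in C57BL/6J, and with upper-quartile factors 407 and 832. Among interferon-stimulated genes 8 of 16 were higher and 0 lower. Ifit1 differed by 1.26 (adjusted p = 0.0012), with a mean of -0.21 over the other strains, Irf7 by 0.77 (adjusted p = 0.0096) and Isg15 by 0.77 (adjusted p = 0.017). Lipid droplet genes were higher for 5 of 16 and lower for 1. Cidea differed by 4.69 (adjusted p = 0.0025, mean of the others 1.52), Cfd by 4.40 (adjusted p = 0.0013), Cidec by 2.61 (adjusted p = 2.1e-04) and Plin4 by 1.44 (adjusted p = 0.016), whereas Pparg differed by -1.26 (adjusted p = 0.0064, mean of the others 2.22).

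In the sterol lists, the effect on Hmgcs1 was lower than the mean of the others (difference -1.08, adjusted p = 0.0075), and Abcg5 and Abcg8 were higher by 0.53 and 0.62 (adjusted p = 0.01 and 0.0092). The differences for Sqle (-0.35, adjusted p = 0.59) and Idi1 (-0.53, adjusted p = 0.29) were not called. Igha had a diet effect near 0 in the other strains (mean 0.13), and the difference was -3.80 (adjusted p = 7.7e-07). Ccnd1 differed by -1.78 (adjusted p = 1.4e-05, mean of the others 0.62) and Cyp3a11 by -1.67 (adjusted p = 9.8e-06), where the mean over the other strains was 1.88. Of 15 NRF2 and glutathione genes, 5 had a lower effect in C57BL/6J, among them Gsta4 (difference -0.90, adjusted p = 2.9e-06). The Mup genes Mup17, Mup7, Mup11 and Mup1 had differences of 6.63, 6.12, 4.38 and 4.32 (adjusted p = 2.5e-08, 2.4e-05, 0.0013 and 3.3e-05). However, they are near-identical paralogs, and multimapping reads were listed apart from the gene counts. Reads of all strains were also mapped to the C57BL/6J genome. Within C57BL/6J, Mup7 and Mup11 were listed at 0 in CD replicate 2, and their calls were lost without CD replicate 2 or 6 or WD replicate 6, 7 or 8 (log2 fold changes of 4.17 to 5.99 and 3.12 to 4.98 over the 16 fits). Star, a steroidogenic transport protein, differed by -1.72 (adjusted p = 0.0099), but its level was 198 CPM in CD replicate 2, the mouse with adrenal transcripts, against 2.02 to 3.92 CPM in the other 15 mice, and its log2 fold change was -1.88 with that mouse, not past the threshold, and -0.45 without it, past the threshold (adjusted p = 0.0068). Without CD replicate 2 and WD replicate 3 the strain difference of Star was -0.27 (adjusted p = 0.14).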

How the data were processed

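Liver RNA of 93 male mice of 7 strains on CD or WD was sequenced, and the 16 C57BL/6J mice are described here. The authors deposited raw read counts per gene, not normalized, and the submitters' processing notes name STAR 2.7.1a and GRCm38/mm10, while the strand setting of the counting is not given in the sources used here, so reads of overlapping genes on opposite strands (Abcg5 and Abcg8, for example) cannot be told apart. The files also list 4 summary lines, which were left out of library sizes: unmapped 1.66 to 3.87%, multimapping 8.03 to 10.3%, outside genes 3.82 to 5.28% and ambiguous 4.65 to 5.54% of counted reads. Of 53465 genes listed, 53360 were paired with a symbol through GENCODE M21. Multimapping reads bear on paralogs (Mup, Saa, Orm).

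Groups and cohorts were taken from the labels, and replicates were numbered in accession order. Genes were kept with filterByExpr (minimum count 10), scaled with TMM (factors 0.91 to 1.19) and tested with limma-voom (limma 3.58.1, edgeR 4.0.16, R 4.3.3) on diet plus cohort over the 16 mice, with Benjamini-Hochberg adjustment at 0.05. A second fit gave each cohort its own diet effect. The strain comparison used all 93 mice in 14 groups with cohort within strain. The log2 fold changes and SEs are those of limma, and every adjusted p without another name is limma's. CPM values are on TMM-scaled library sizes. Library measures were set against diet in an exact permutation test, two-sided, over 12870 arrangements. The pipeline was tested on simulated data. Alternatives were edgeR's quasi-likelihood test, DESeq2 1.42.0, upper-quartile factors, other filters, other covariates, sample weights, all 93 mice, each cohort alone and each mouse left out. P-values measure the spread between mice, and the labels do not tie mice to cages. Depth was similar over the 16 mice. Wide SEs also occurred at high levels, for example 0.86 for Serpina1e at a CD median of 1737 CPM.

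Promoters were the 250 bases before the RefSeq start in GRCm38.p6, searched for fixed letters on both strands. The members and gene lists were chosen with earlier results of these data known. The rule for named genes took the 6 largest increases and decreases without overlap at a mean log2 CPM of at least 1, the 2 largest called changes and fixed genes of each list, the 4 largest strain differences in each direction, the 3 largest called cohort differences and Nnt. Some genes that the rule takes are not reported here. Other genes were named after their values were seen, as were the adrenal, adipocyte and pancreatic lists.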

Additional observations from a re-analysis of the deposited data

Results flagged for a closer look

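In 206 groups of 8 mice (103 genes in each diet), Dixon's test marked 32 single mice as far from the others, where chance marks about 1 in 20 groups. CD replicate 2 accounted for 18 and WD replicate 3 for 12, so these marks are not independent. CD replicate 2 was the highest CD mouse for Cfd (18.87 CPM), Cidea (3.253 CPM), Col1a1 (95.67 CPM), Col3a1 (193.5 CPM), Fabp4 (47.68 CPM), Gpnmb (189.9 CPM), Igfbp3 (41.27 CPM), Itgax (22.39 CPM), Krt23 (7.495 CPM) and Star (198.4 CPM). It was the lowest for Clec4f (40.56 CPM), Cpt1a (206.3 CPM), Cyp4a12a (6.183 CPM), Glul (219.8 CPM), Hsd3b5 (0.1258 CPM), Per1 (8.285 CPM), Timd4 (0.665 CPM) and Vnn1 (11.72 CPM). WD replicate 3 was the lowest WD mouse for Cpt1a (494 CPM), Cyp2e1 (2057 CPM), Cyp8b1 (56.73 CPM), Glul (299.1 CPM), Gm13775 (4.736 CPM), Orm3 (1.539 CPM), Pnpla3 (1.334 CPM), Ppara (39.38 CPM), Scd1 (15460 CPM), Timd4 (1.026 CPM) and Tmem28 (2.086 CPM), and the highest for Mki67 (16.14 CPM). The remaining marks were Adgre1 at 138.3 CPM in WD replicate 4 and Fgf21 at 14.88 CPM in CD replicate 7.

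A test of the difference (limma) between the log2 diet effect in C57BL/6J and that averaged over the other 6 strains passed for 38 of the genes named. The C57BL/6J effect was higher for Mup17 (6.63), Mup7 (6.12), Cidea (4.69), Cfd (4.40), Mup11 (4.38), Mup1 (4.32), Orm3 (3.88), Cidec (2.61), Gm13775 (2.11), Ephb2 (1.83), Cxcl1 (1.81), Per1 (1.58), Plin4 (1.44), Dbp (1.37), Ifit1 (1.26), Per2 (1.16), Lyve1 (0.99), Pck1 (0.86), Irf7 (0.77), Isg15 (0.77), Cyp2e1 (0.76), Igfbp3 (0.69), Fabp4 (0.65), Abcg8 (0.62) and Abcg5 (0.53). It was lower for Igha (-3.80), Npas2 (-2.24), Enho (-1.91), Ccnd1 (-1.78), Star (-1.72), Cyp3a11 (-1.67), Avpr1a (-1.60), Trem2 (-1.47), Pparg (-1.26), Atp2b2 (-1.09), Hmgcs1 (-1.08), Gsta4 (-0.90) and Abcb11 (-0.50). Without CD replicate 2 and WD replicate 3, the differences of Dbp (0.99), Gm13775 (1.52), Npas2 (-1.60), Pck1 (0.73) and Star (-0.27) no longer passed the test.

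The diet effect differed between the cohorts for Npas2 (4.64), Arntl (3.77), Gm33447 (-3.52), Cyp7a1 (-3.51) and Pparg (-1.83), as log2 differences of cohort 2 minus cohort 1.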

How the results depend on the processing

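No paired analysis was possible because the labels give no replicate numbers, and the numbers used here follow accession order. For the diet effect in C57BL/6J, genes upregulated and genes downregulated numbered 2251 and 1944 with sample quality weights, 2647 and 2193 with all 93 mice and cohort within strain, 2728 and 2270 with all 93 mice and no cohort term, 192 and 266 in cohort 1 alone, 840 and 727 in cohort 2 alone, 2059 and 1941 without CD replicate 2 and WD replicate 3, and 819 and 773 without the CD mice of cohort 1. Leaving out 1 mouse gave 796 to 1765 and 719 to 1591, the lowest without WD replicate 6 and the highest without CD replicate 2. The other alternatives stayed within 1.5 times, with edgeR calling 2268 and DESeq2 2458 of the 2515 DEGs in the same direction. For the diet effect in C57BL/6J against the mean of the other 6 strains, genes higher were 917 without the 2 mice that stood apart. For the diet effect in cohort 2 against cohort 1 of C57BL/6J, genes higher and genes lower were 832 and 632 with weights and 522 and 508 without those 2 mice. For cohort 2 against cohort 1 of C57BL/6J, genes higher and genes lower were 40 and 21 with weights and 4 and 1 without those 2 mice. Directions turned for Arntl (0.41 both in cohort 2 alone and without the CD mice of cohort 1), Npas2 (0.44 and 0.45), Cyp7a1 (-1.80 in both), Pparg (-0.01 and 0.00) and Gm33447 (1.54 in cohort 1 alone). Of 103 genes named, 79 of them DEGs, 50 lost their call in cohort 1 alone and 17 in cohort 2 alone, where fewer mice were tested, and 13 with edgeR and 4 with DESeq2. The other causes were not tested. The settings without the 2 mice and without the CD mice of cohort 1 were chosen after the data were seen.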
